A study of Homo sapiens with 14 samples.

Results

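The genes described here are MDM2 and 32 other regulators and direct targets of the transcription factor p53. They were chosen by name from a list of 33 symbols, with earlier results of these data known. All 33 were found in both of the authors' deposited tables, among 12202 genes listed in either one. p53 is kept low in unstressed cells by MDM2, a ubiquitin ligase that marks it for degradation, and MDM2 is itself a p53 target, so the pair forms a feedback loop. DNA breaks, including those made by Cas9, activate kinases that free p53 from MDM2, and p53 then raises genes that halt the cell cycle, repair DNA or start apoptosis. In endothelial cells the pathway is known for its part in senescence and in the loss of cells after genotoxic stress.

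All 14 libraries were made from teloHAEC, a telomerase-immortalised line of human aortic endothelium. The siRNA arm set 4 libraries of cells reverse transfected for 24 hours with siRNA to CALCRL, the calcitonin receptor-like receptor gene, against 4 of cells given scrambled siRNA. The deletion arm set 3 libraries of cells that received, by electroporation, Cas9 protein with guides on either side of an enhancer at CALCRL against 3 that received Cas9 with a guide to HPRT, all collected 2 days later with no cloning step described. Both groups of the deletion arm thus received Cas9 and a cutting guide, and the siRNA arm received neither. Whether replicates came from separate cultures is not given in the labels, so the p-values measure only the spread between these libraries, which may be technical.

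Each arm is known from 1 table of the authors' own DESeq2 comparison, which holds a mean normalised count over the arm, a log2 fold change, its standard error (SE) and an adjusted p-value per gene, but no value for a single library. Whether the libraries of 2 groups overlap could therefore not be seen, and the depth of each library is unknown. Group means given below were worked out from the mean count and the fold change and are called implied means. A gene is said to have been called, to have risen or to have fallen where its adjusted p-value was under 0.05 over all genes of its table. CALCRL was at 34.0% of control under siRNA and 36.2% after the deletion, and HPRT1 at 94.1% of control after the deletion with a 95% interval from 47.4% to 187%, from the authors' deposited tables. Of 10 endothelial markers, 9 were listed in both tables and PECAM1 in neither. CDH5 (-1.44, SE 0.35) and KDR (-1.05, SE 0.31) fell after the deletion by the authors' deposited table (22.2% of the 9, against 15.8% of all genes called). The median log2 fold change of the 9 there was 0.05, with 5 above 0 and 4 below. EGFL7 (-0.46, SE 0.11) fell under siRNA (11.1% of the 9, against 3.46% of all genes called). There the median was -0.08, with 3 above 0 and 6 below. Of 10 markers of smooth muscle, fibroblasts, epithelium and blood, ACTA2, TAGLN and KRT8 were listed, with 0 called in either arm by DESeq2 and, in each arm, 1 whose unadjusted p-value was under 0.05. In bulk RNA, fewer cells of a kind and less RNA per cell cannot be told apart.

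MDM2 was the member that fell in both arms. Its implied mean went from 1136 normalised counts with scrambled siRNA to 773 with CALCRL siRNA, and from 1010 in the CRISPR control to 520 after the deletion. By the authors' deposited tables the log2 fold change was -0.56 (SE 0.07, DESeq2 adjusted p-value 1.01e-12) for siRNA and -0.96 (SE 0.22, adjusted p-value 0.00091) for the deletion. These correspond to 68.1% of control (95% interval 61.9% to 74.8%) and 51.5% (38.1% to 69.7%). The 2 changes did not differ beyond their error: deletion minus siRNA was -0.40 (SE 0.23, 95% interval -0.86 to 0.05, adjusted p-value 0.244). The SE of MDM2 under siRNA was 0.68 times that of genes with a similar mean count, so the siRNA value is one of the more precise ones. Only 19 of the 11261 genes, MDM2 included, had a Wald statistic as low as that of MDM2 under siRNA, against 184 after the deletion. Over the alternatives, its adjusted p-value under siRNA ranged from 7.45e-13 to 0.113, the highest coming from a Student t reference in place of the normal one.

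MDM2 (ENSG00000135679) lies on the plus strand of chromosome 12 from 68808176 to 68850686 in GRCh38 (GENCODE 29). Its longest annotated 3' UTR has 10837 bases and holds the word GTAACAA at 3 places. This word had been picked out from the siRNA values themselves, as one carried by many of the genes that fell, so its presence in a gene that fell supports nothing further. The sites are shown because MDM2 was the only member called under siRNA, with the word in capitals, 5′ to 3′ on the plus strand, from the GENCODE 29 transcript.

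MDM2 3' UTR base 2285, chr12:68842123-68842152: tgaaaaatataGTAACAAgcctgtcaaata

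MDM2 3' UTR base 4410, chr12:68844248-68844277: catatatttggGTAACAAaaggcacaagtc

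MDM2 3' UTR base 5525, chr12:68845363-68845392: ggtgttcagaaGTAACAAattataaaatga

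MDM4 3' UTR base 7624, chr1:204556313-204556342: tatctaataaaGTAACAActcgtagttgag

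MDM4, the close relative of MDM2 that masks the activation domain of p53, is the other member with the word, which occurs once in its 3' UTR of 9419 bases. By the authors' deposited table MDM4 was at -0.01 (SE 0.17) under siRNA. The word was searched on the transcript strand only and was found in 10.3% of the 10634 genes of the siRNA table with an annotated 3' UTR. Among the 908 genes whose 3' UTR has at least 5000 bases it was found in 33.3%, and 2.31% of them carried it 3 or more times. Nearer in length are the 177 genes with the longest 3' UTRs (median 10940 bases), which include MDM2 and MDM4. The word was found in 48.0% of these 177 genes, and 6.78% of them carried it 3 or more times. Of the 33 members, 2 (6.06%) carried it. Whether MDM2 transcripts in these cells use the long 3' UTR was not tested, nor was any part of the word in the change of MDM2. A match in the transcript is a description of the sequence and not a shown site.

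Under siRNA, MDM2 was the only one of the 33 members called (3.03%), where 3.46% of all 11261 genes were called, 2.42% lower and 1.05% higher. The members had a median log2 fold change of -0.01, against 0.00 over all genes, with 16 above 0 and 17 below. Besides MDM2, the unadjusted p-value was under 0.05 only for TP53INP1, a stress protein of autophagy and apoptosis, at 0.40 (SE 0.16, DESeq2 adjusted p-value 0.202) by the authors' deposited table. CDKN1A, the gene of the cell cycle inhibitor p21 and the target most often used to read p53 activity, was at -0.05 (SE 0.11) under siRNA by the authors' deposited table. Its interval ran from 83.6% to 112% of control, which bounds any change closely.

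After the deletion, 8 of the 33 members were called (24.2%), 7 lower and 1 higher, where 15.8% of all 11830 tested genes were called. By direction, 21.2% of members fell against 8.44% of all genes, and 3.03% rose against 7.4%. The members were chosen with earlier results of these data known, so these shares are a description only. The median log2 fold change of the members was -0.23, against 0.00 over all genes, with 22 below 0 and 11 above. The members that fell were BLOC1S2, PPM1D, BTG2, CCNG1, TNFRSF10B, MDM2 and RRM2B, and AEN rose. All 8 calls were lost when the statistics were divided by their robust SD over all genes (1.88) or compared with Student's t on 4 degrees of freedom. Those settings left 0% of all genes of the deletion table called, so the loss is not particular to the members, of which 5 and 7 were below 0.05 before adjustment. It also covers the deletion calls given for CALCRL, the endothelial markers and the gene lists.

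**Figure D1:**
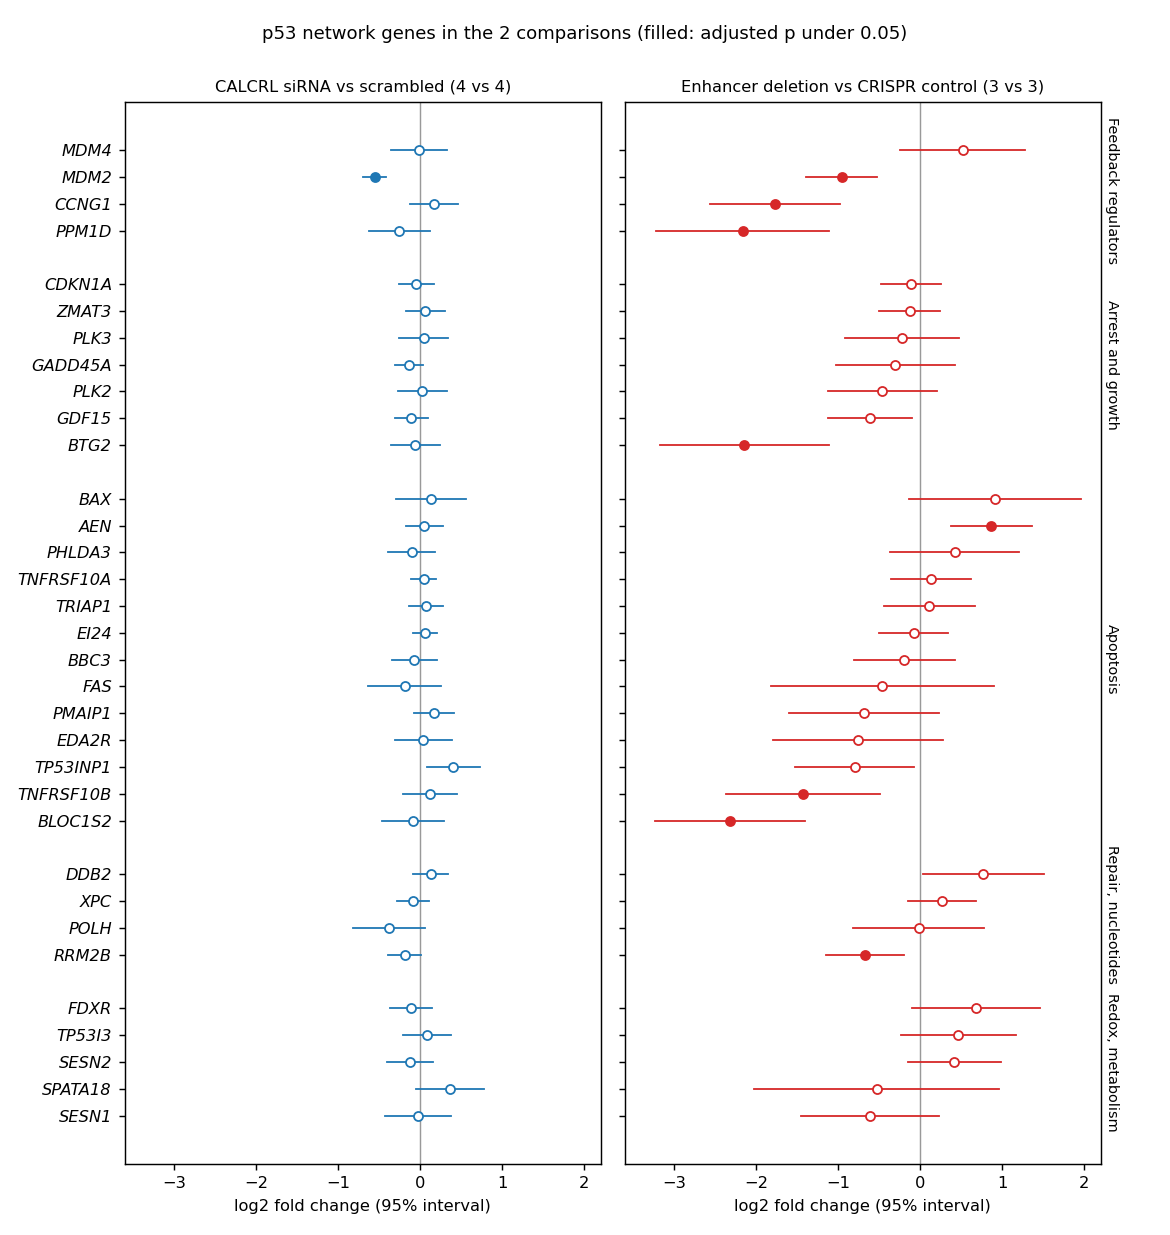
log2 fold change of each of the 33 members (points) with its 95% interval (lines) under CALCRL siRNA (left) and after the enhancer deletion (right), grouped by role; filled points have an adjusted p-value under 0.05. MDM2 alone is filled on the left, and 8 points are filled on the right, where the intervals are wider.

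Of the 4 feedback regulators, 3 fell after the deletion (75%, against 8.44% of all genes). The group is small and its genes were chosen with earlier results known, so this share is a description only. PPM1D encodes WIP1, a phosphatase that switches off p53 and the kinases upstream of it. Its implied mean was 106 normalised counts in the CRISPR control and 23.7 after the deletion, and its log2 fold change by the authors' deposited table was -2.16 (SE 0.54, DESeq2 adjusted p-value 0.002). CCNG1 encodes cyclin G1, which brings a phosphatase to MDM2. It went from an implied mean of 533 to 156 normalised counts, a log2 fold change of -1.77 (SE 0.40, adjusted p-value 0.000649 by DESeq2) by the authors' deposited table. Together with MDM2 these are 3 genes through which p53 limits its own activity. All 3 deletion calls were lost under the Student t reference and under division by the robust SD. MDM4, which is not mainly a p53 target, was at 0.52 (SE 0.39, adjusted p-value 0.380 by DESeq2) by the authors' deposited table. Under siRNA, PPM1D was at -0.25 (SE 0.19) and CCNG1 at 0.17 (SE 0.15) by the authors' deposited table, neither called.

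Among the 7 genes of cell cycle arrest and growth control, BTG2 alone was called after the deletion. This is 14.3%, against 15.8% of all genes called, 8.44% lower. All 7 had log2 fold changes below 0, as had 5878 of all 11830 genes. BTG2, an antiproliferative cofactor of mRNA deadenylation, went from an implied mean of 100.4 normalised counts to 22.7. Its log2 fold change by the authors' deposited table was -2.14 (SE 0.53, DESeq2 adjusted p-value 0.00173), which puts it at 22.6% of control with a 95% interval from 11.1% to 46.2%. CDKN1A was at -0.11 (SE 0.19) by the authors' deposited table, or 92.5% of control (71.8% to 119%). On the deposited SE with a normal reference, the interval of BTG2 thus ends below the point where that of CDKN1A begins. The call of BTG2 was lost when the statistics were divided by their robust SD over all genes (1.88). GDF15, a secreted stress cytokine, was at -0.61 (SE 0.26, DESeq2 adjusted p-value 0.0849) by the authors' deposited table. With the trend of fold change on GC content removed it was at -0.98 and passed the threshold (adjusted p-value 0.00449). The polo-like kinases PLK2 (-0.46, SE 0.34) and PLK3 (-0.23, SE 0.35), the growth arrest gene GADD45A (-0.30, SE 0.37) and the RNA-binding protein gene ZMAT3 (-0.13, SE 0.19) were not called by the authors' deposited table. With the GC trend removed GADD45A was at -0.06 and ZMAT3 at 0.08, so the 7 genes no longer shared a sign. Under siRNA all 7 lay between -0.14 and 0.06, and 0 were called by DESeq2 and 0 had an unadjusted p-value under 0.05.

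The 13 genes of apoptosis and survival moved both ways after the deletion. BLOC1S2, a subunit of complexes that position lysosomes and endosomes, had the lowest value of all members. Its implied mean went from 564 normalised counts to 113, and the log2 fold change by the authors' deposited table was -2.31 (SE 0.47, DESeq2 adjusted p-value 8.08e-05). TNFRSF10B, the death receptor for TRAIL also called DR5, went from 759 to 282, at -1.43 (SE 0.48, DESeq2 adjusted p-value 0.0259) by the authors' deposited table. Its neighbour TNFRSF10A, which encodes the other death receptor for TRAIL, was at 0.13 (SE 0.25) by the authors' deposited table and was not called. FAS, a death receptor of another ligand, was at -0.46 (SE 0.69) by the authors' deposited table, with an interval from 28.4% to 186% of control that bounds little.

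AEN, a nuclease that degrades DNA in apoptosis, was the one member that rose. Its implied mean went from 236 normalised counts to 429, a log2 fold change of 0.86 (SE 0.25, DESeq2 adjusted p-value 0.00961) by the authors' deposited table. With the GC trend removed it was at 0.61 and no longer called (adjusted p-value 0.0906). RefSeq promoters (GRCh38.p14, 250 bases before to 50 after the start) were searched for the p53 response element. It was taken as 2 adjoining decamers with a fixed C and G in each and at most 2 mismatches elsewhere. Among members, only AEN had a match. That match has 2 mismatches, the most allowed, and 0 of the 27 members searched match with at most 1. The element reads the same on both strands in its consensus. A match was found in 1 of 27 members with a promoter sequence, and in 0.271% of all 27305 promoters of that length. It is shown as the only match among the promoters of members searched, with the fixed bases in capitals, 5′ to 3′ on the plus strand.

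AEN promoter, chr15:88621306-88621325, first base at -34: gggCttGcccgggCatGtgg

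The match is a description of the sequence and not a shown site, and its part in the change of AEN was not tested. The other 26 members searched have no such match in this window, which says only that these letters are not there, and 6 members were not searched. Of the mitochondrial and BH3 proteins that carry out p53-driven death, BAX was at 0.91 (SE 0.53), BBC3, which encodes PUMA, at -0.19 (SE 0.31) and PMAIP1, which encodes NOXA, at -0.68 (SE 0.47) by the authors' deposited table. None of the 3 was called by DESeq2, and 0 of them had an unadjusted p-value under 0.05. TP53INP1 was at -0.80 (SE 0.37, DESeq2 adjusted p-value 0.122) after the deletion by the authors' deposited table. EDA2R, an ectodysplasin receptor, was at -0.76 (SE 0.53), PHLDA3, an inhibitor of AKT, at 0.42 (SE 0.40), TRIAP1, a p53-regulated inhibitor of apoptosis, at 0.11 (SE 0.28) and EI24, a membrane protein of the endoplasmic reticulum, at -0.08 (SE 0.21) by the authors' deposited table. Under siRNA the 13 genes lay between -0.19 and 0.40, with 0 called by DESeq2 and 1, TP53INP1, below 0.05 before adjustment.

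Of the 4 genes of DNA repair and nucleotide supply, RRM2B fell after the deletion. It encodes the p53-inducible small subunit of ribonucleotide reductase, which supplies deoxynucleotides outside S phase. Its implied mean went from 566 to 357 normalised counts, at -0.67 (SE 0.24, DESeq2 adjusted p-value 0.041) by the authors' deposited table, and with the GC trend removed it was at -0.39 and no longer called (adjusted p-value 0.308). DDB2, a damage sensor of nucleotide excision repair, was at 0.77 (SE 0.38, DESeq2 adjusted p-value 0.146), XPC, another such sensor, at 0.27 (SE 0.21) and POLH, a translesion polymerase, at -0.02 (SE 0.41) by the authors' deposited table. The sestrins SESN1 (-0.61, SE 0.43) and SESN2 (0.42, SE 0.29), the quinone oxidoreductase gene TP53I3 (0.46, SE 0.36), the ferredoxin reductase gene FDXR (0.68, SE 0.40) and the mitochondrial quality gene SPATA18 (-0.53, SE 0.76) were not called after the deletion by the authors' deposited table. Under siRNA, POLH was the lowest of these 9 genes at -0.38 (SE 0.22) and SPATA18 the highest at 0.36 (SE 0.21) by the authors' deposited table, neither called.

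**Figure D2:**
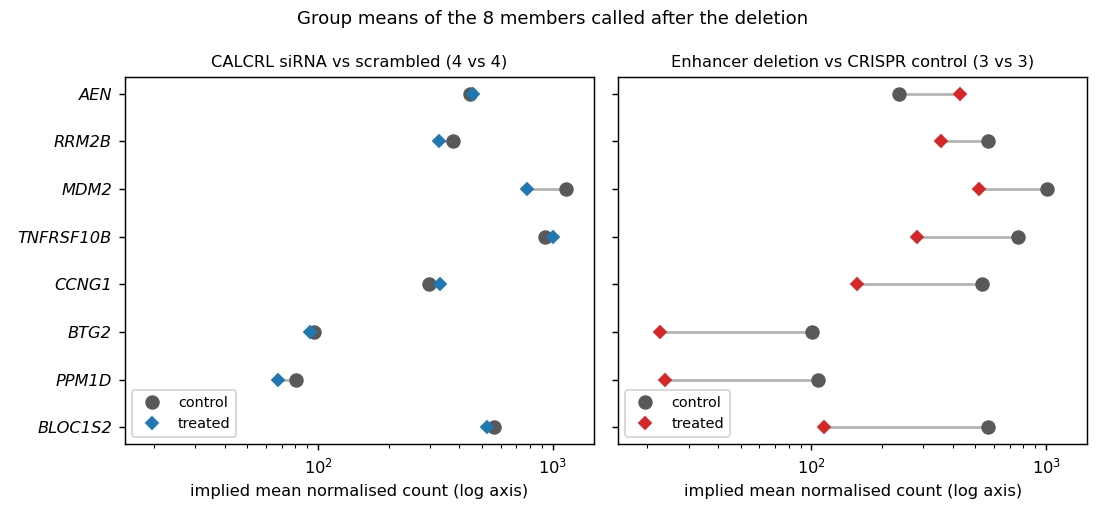
Implied mean normalised count (log axis) in the control group (grey circles) and the treated group (coloured diamonds) for the 8 members called after the deletion, in the siRNA arm (left) and the deletion arm (right). In the deletion arm BTG2 and PPM1D end near 23 normalised counts from about 100, while in the siRNA arm MDM2 shows the widest gap, 1136 to 773.

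The difference between the arms was tested gene by gene, with adjustment over the 10891 genes with a p-value in both tables. It passed the threshold in 7 of the 33 members (21.2%), where 13.7% of all genes did. In 6 members the deletion value was the lower one (18.2%, against 7.22% of all genes) and in 1 the higher (3.03%, against 6.49%). Deletion minus siRNA was -2.22 (SE 0.50, adjusted p-value 0.000807) for BLOC1S2, -2.09 (SE 0.55, 0.00448) for BTG2, -1.94 (SE 0.43, 0.000611) for CCNG1 and -1.91 (SE 0.57, 0.0136) for PPM1D. TNFRSF10B differed by -1.55 (SE 0.51, adjusted p-value 0.0251), TP53INP1 by -1.20 (SE 0.41, 0.0293) and AEN by 0.81 (SE 0.28, 0.031). MDM2 and RRM2B, called after the deletion, did not pass this test; RRM2B differed by -0.48 (SE 0.26, adjusted p-value 0.214). For CDKN1A the difference was -0.07 (SE 0.22), with a 95% interval from -0.49 to 0.36. The 7 differences were lost under the Student t reference and under division by the robust SD (1.84), with 7 and 3 members below 0.05 before adjustment; 0% of all genes differed under either setting.

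**Figure D3:**
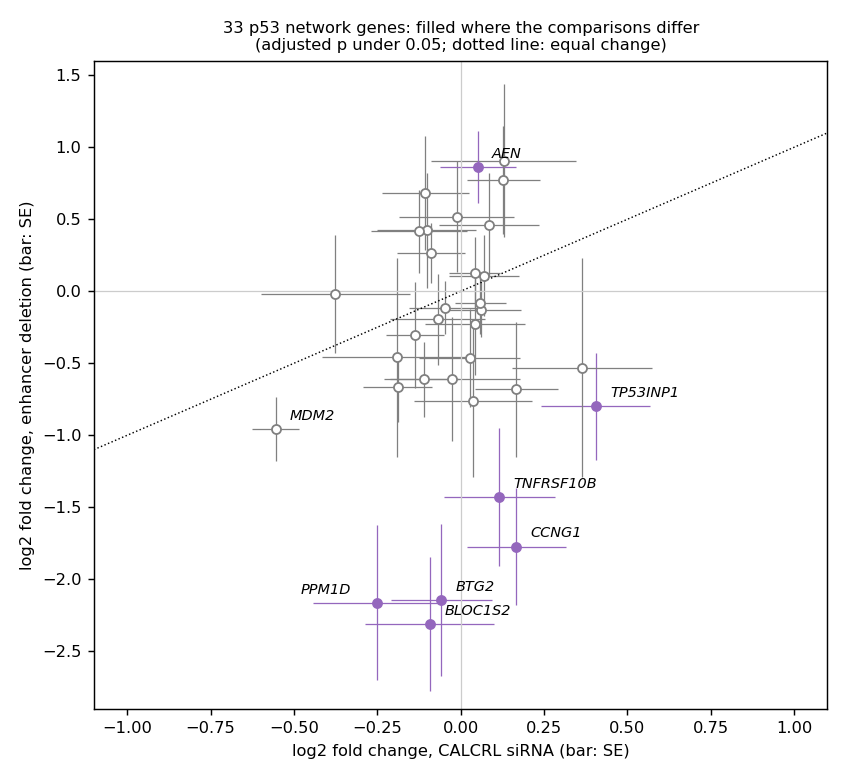
log2 fold change of the 33 members under siRNA (x axis) and after the deletion (y axis), with bars of 1 SE; filled points are the 7 members whose changes differ between the arms. The axes have different ranges, the points spread mainly along the y axis, and MDM2 lies apart at the left (-0.56 and -0.96).

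Several values moved with these results. In the deletion table the log2 fold change rose with GC content of the last 500 bases of the transcript, from a median of -0.26 in the lowest of 10 GC groups to 0.62 in the highest, against -0.03 and 0.01 in the siRNA table. The 7 members that fell had a GC content between 29.8% and 45.6%, and AEN 51.8%. With the trend removed, 7 members were called, all lower: 6 of the 7 that fell before, without RRM2B, and GDF15. Over all genes 12.1% were called in this setting. That setting changed the split from 7 lower and 1 higher to 7 lower and 0 higher. Several members that were not called moved by more than 1.5 times: FDXR from 0.68 to 0.02, SESN2 from 0.42 to 0.05, TP53I3 from 0.46 to 0.20, BAX from 0.91 to 0.43 and PMAIP1 from -0.68 to -0.33. Lower values resulted for BBC3 (from -0.19 to -0.63), PLK3 (from -0.23 to -0.69) and CDKN1A (from -0.11 to -0.34), none of them called. BLOC1S2 and TNFRSF10B also had an SE under siRNA that was 1.77 and 1.63 times that of genes with a similar mean count, the only members past 1.5 times. In the deletion arm, where they were called, their ratios were 1.56 and 1.86, again the only members past 1.5 times. Over all 499 genes past 1.5 times under siRNA, 52.9% fell after the deletion, against 6.8% of the 10392 others, and this pair is among them. The limit of 1.5 was set with these values known. Among members, the remaining 31 members held 5 of the 7 that fell. The part of these properties in the changes was not tested.

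**Figure D4:**
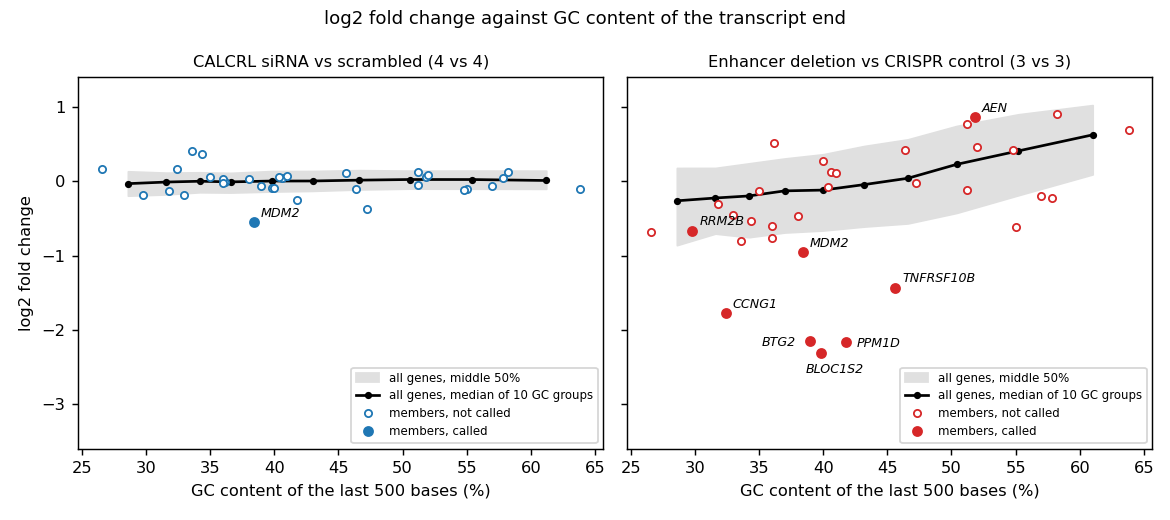
log2 fold change against GC content of the last 500 bases of the transcript, for siRNA (left) and the deletion (right); the line joins medians of 10 groups of all genes, the band covers their middle 50%, and circles are the 33 members. On the right BTG2, PPM1D, BLOC1S2 and CCNG1 lie far below the band, while RRM2B lies within it.

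Other genes of the pathway were taken from 3 lists, also chosen with earlier results of these data known, so their shares are descriptions only. Among 36 names of p53 and its regulators, 31 were listed in both tables. After the deletion 4 of the 31 were called (12.9%), 2 in each direction, a share below the 15.8% of all genes. RCHY1, a ubiquitin ligase for p53, fell at -2.10 (SE 0.50, DESeq2 adjusted p-value 0.0011), and so did RPL23, a ribosomal protein that binds MDM2, at -0.84 (SE 0.30, adjusted p-value 0.0359), by the authors' deposited table. BRD7, a bromodomain cofactor of p53, rose at 1.24 (SE 0.35, DESeq2 adjusted p-value 0.00734) and MAGED2 at 1.27 (SE 0.36, 0.00753) by the authors' deposited table. Under siRNA 0 of the 31 were called by DESeq2, and 3 were below 0.05 before adjustment. With the GC trend removed RPL23 was at -0.78 and no longer called (adjusted p-value 0.062), and PPP1R13L, an inhibitor of p53, was called lower at -1.14 (adjusted p-value 0.0412). RCHY1 also had a siRNA SE 1.62 times that of genes with a similar mean count.

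Of 66 further genes known as direct p53 targets, 54 were listed in both tables. After the deletion 10 fell (18.5%) and 0 rose by DESeq2, where 8.44% and 7.4% of all genes did, and 21 had an unadjusted p-value under 0.05. With the GC trend removed, 6 were called lower and 1, FBXW7, higher (1.02, adjusted p-value 0.0153) among 53 genes. In that setting 12.1% of all genes were called in either direction. CCDC90B, DYRK3 and RAP2B lost their calls, and DUSP14 had no GC value. The median log2 fold change of the list was -0.40, with 35 below 0 and 19 above. DUSP14, a phosphatase of MAP kinases, was at -2.16 (SE 0.41, DESeq2 adjusted p-value 2.24e-05), PERP, a desmosome protein of p53-driven death, at -1.52 (SE 0.32, 0.000217) and KITLG, the ligand of KIT, at -1.53 (SE 0.33, 0.00036) by the authors' deposited table. TSKU, a secreted leucine-rich protein, was at -1.48 (SE 0.37, DESeq2 adjusted p-value 0.00213) by the authors' deposited table. Lower calls were also made for DYRK3 (-2.10, SE 0.75), EPHA2 (-1.66, SE 0.59), ORAI3 (-1.50, SE 0.51), RAP2B (-1.15, SE 0.42) and CCDC90B (-0.77, SE 0.27) by the authors' deposited table. EPHA2 and KITLG also had a siRNA SE over 1.5 times that of genes with a similar mean count (3.29 and 1.57 times). Under siRNA 3 of the 54 were called (5.56%), all lower, where 3.46% of all genes were called and 2.42% were called lower. RAP2B, a small GTPase, was at -0.63 (SE 0.15) and THBS1, which encodes thrombospondin, at -0.51 (SE 0.09) by the authors' deposited table. FBXW7, a ubiquitin ligase subunit, was at -0.47 (SE 0.13) by the authors' deposited table. RAP2B was thus called lower in both arms, but its deletion call was lost with the GC trend removed (-0.92, adjusted p-value 0.134). FBXW7 was at 0.80 (SE 0.31, DESeq2 adjusted p-value 0.0546) after the deletion by the authors' deposited table, and its changes differed between the arms by 1.27 (SE 0.33, adjusted p-value 0.00446).

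The third list held 24 cell cycle genes that p53 lowers through p21 and the DREAM repressor complex, all listed in both tables. After the deletion 7 were called (29.2%), 6 higher (25%) and 1 lower (4.17%), where 7.4% and 8.44% of all genes were. The replication helicase gene MCM5 rose by 1.33 (SE 0.36), the transcription factor genes FOXM1 by 1.16 (SE 0.34) and MYBL2 by 0.85 (SE 0.27), the mitotic kinase gene AURKB by 0.87 (SE 0.22) and the topoisomerase gene TOP2A by 0.78 (SE 0.26) by the authors' deposited table. The kinesin gene KIF20A fell by 1.79 (SE 0.47) by the authors' deposited table. With the GC trend removed, 4 of the 24 were called in place of 7, where 12.1% of all genes were. The calls lost were all higher ones: FOXM1 (adjusted p-value 0.0624), MYBL2 (0.456) and AURKB (0.123). Under siRNA 0 of the 24 were called by DESeq2, with 4 at an unadjusted p-value under 0.05 and a median of -0.10.

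**Figure D5:**
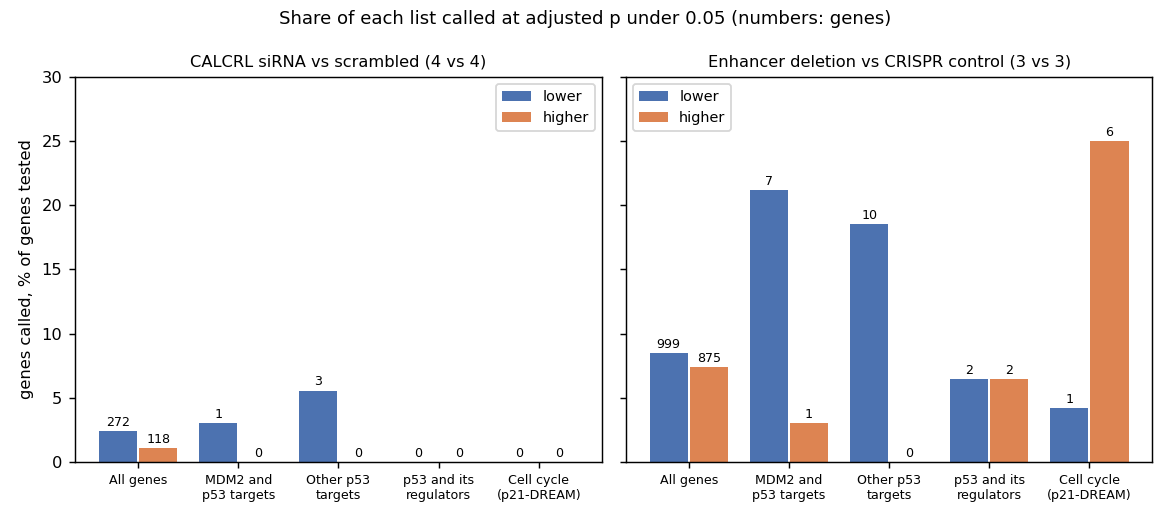
Percent of tested genes called lower (blue) and higher (orange) at an adjusted p-value under 0.05, over all genes and in the 4 gene lists, for siRNA (left) and the deletion (right); numbers above the bars are genes. On the right, 7 members and 10 other p53 targets are lower, with 1 and 0 higher, and 6 cell cycle genes are higher, with 1 lower.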

How the data were processed

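RNA of 14 libraries was made into 3' mRNA-seq libraries (QuantSeq FWD), per the labels' protocols. The deposited files are named for featureCounts and DESeq2, so the authors' gene counts and group tests are taken to come from these tools. The submitters' processing notes name hg19 and edgeR 3.24.3, without a role. The aligner, annotation, filters and use of strand are not given in the sources used here. The deposited tables hold mean normalised counts, log2 fold changes with SE, a Wald statistic (a score), p-values and adjusted p-values, 5 genes lacking p-values in the deletion table. Values per library were not analysed here, so the authors' own tests are the main ones.

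The difference between arms was the difference of the log2 fold changes over the root of their summed squared SE, read against the normal distribution and adjusted by Benjamini-Hochberg, and no library is in both arms. Implied means assume equal group weights. SE ratios used the median SE of 201 genes adjacent in mean count. GC content, 3' UTRs and positions came from GENCODE 29 on GRCh38, matched by gene ID for 11099 and 11630 genes; this build differs from that of the notes, and coordinates were not converted. Trends were removed by lowess (span 0.3, statsmodels 0.14.6; Python 3.11.15). In GRCh38, the last 500 bases of PHLDA3 overlap another gene's exons on the same strand. Those of XPC, TNFRSF10A, PLK3 and TNFRSF10B overlap exons on the opposite strand only, which matters if counting ignored the strand. BLOC1S2, CCNG1, EI24, POLH and TRIAP1 have processed pseudogenes. The counts of these genes are thus less certain, to a degree that was not tested. All 33 members were named, and of the other lists the called genes, except a few that are not reported here; members and lists were chosen with earlier results of these data known.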

Additional observations from a re-analysis of the deposited data

Results flagged for a closer look

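The change after the deletion differed from that under siRNA in 7 members (21.2%), where 13.7% of all genes differed. This was a test of the difference itself (normal reference, adjusted over 10891 genes). All 7 differences were lost under the Student t reference and under division by the robust SD, where 0% of all genes differed. Deletion minus siRNA was -2.22 for BLOC1S2, -2.09 for BTG2, -1.94 for CCNG1, -1.91 for PPM1D, -1.55 for TNFRSF10B and -1.20 for TP53INP1, and it was 0.81 for AEN, all as log2 fold changes. TP53INP1 was called in neither arm (0.40 under siRNA and -0.80 after the deletion), and its difference was lost with the GC trend removed, as was that of AEN, while GDF15 was gained. At an adjusted p-value under 0.01 the differences of BLOC1S2, BTG2 and CCNG1 were the 3 that remained, where 4.95% of all genes passed. The arms also differ in delivery, in time after treatment and in their controls, which cannot be told apart from the treatment.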

How the results depend on the processing

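No paired analysis was possible because only values per comparison, none per library, were analysed here; count models, other normalisations and leaving out each replicate were not run for the same reason. With a Student t reference, 0 members were called under siRNA, 0 after the deletion and 0 for the difference, with 2, 7 and 7 at an unadjusted p-value under 0.05; over all genes 0.0444%, 0% and 0% were called. With the statistics divided by their robust SD, 0 were called after the deletion and 0 for the difference (5 and 3 at an unadjusted p-value under 0.05, and 0% of all genes in both), while MDM2 kept its siRNA call. At a threshold of 0.01 on the adjusted p-value, the difference passed in 3 members, and in 4.95% of all genes. Without the GC trend, the deletion values of ZMAT3 and EI24, neither called, changed sign to 0.0795 and 0.0433. Subtracting the median or keeping genes with a mean count of at least 50 changed no call among members that could be tested. Depth per library is unknown.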
